A study of Mus musculus with 27 samples.

Results

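The RNA of mouse fibroblasts transfected with siRNA against Dnmt1 was compared with that of the same cells transfected with control siRNA, across all genes. The members are the siRNA libraries of cells that were not given 4OHT, taken by their labels: 2 libraries with siRNA against Dnmt1 (siDnmt1) and 2 with control siRNA (siCtrl). These are 4 of the 8 libraries of the siRNA experiment and of 27 libraries in the series. The study asks how endogenous retroviruses are kept silent by the histone methyltransferase Setdb1, and the siRNA experiment asks what the DNA methyltransferase Dnmt1 does for these elements. The cells are immortalized mouse embryonic fibroblasts with a conditional allele of Setdb1 (Setdb1 cKO iMEFs), which the drug 4-hydroxytamoxifen (4OHT) makes the cells delete. All groups share this genotype, were transfected with siRNA, and were harvested on day 6. The siRNA against Dnmt1 was a pool. The siCtrl and siDnmt1 groups were given no 4OHT and so kept Setdb1. The other 4 libraries of the experiment, 2 labelled 4OHT + siCtrl and 2 labelled 4OHT + siDnmt1, come from cells that were given 4OHT. The line is immortalized, so it stands for a cultured fibroblast and not for an embryo's tissue. Per the paper's methods, the cells were recloned from single cells and a clone was chosen for its response to 4OHT, though the account of the siRNA experiment does not name the clone. The labels do not say that the replicates are separate cultures, so a p-value measures only the spread between these libraries.

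Dnmt1 copies the methylation of CpG sites onto the new DNA strand after replication, together with Uhrf1, which binds the sites that still lack it. When Dnmt1 is depleted in dividing cells, methylation is lost by dilution. In fibroblasts, DNA methylation is known for silencing genes of the germ line, whose promoters are methylated in the early embryo, and retroviral elements of the IAP family, which keep an intact promoter in their long terminal repeats. It also marks 1 parental copy of imprinted genes and the silent X chromosome of female cells. Transcribed retroviral elements can form double-stranded RNA, which the sensors of the interferon pathway recognize. These statements are background and not results of the data below.

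The authors deposited for each library the FPKM of each assembled locus, that is, the number of reads per kilobase of transcript, scaled to the mapped reads of the library. The deposited confidence intervals of genes with 1 exon implied 14.8 M and 14.6 M reads in siCtrl 1 and 2. They implied 15.1 M and 14.8 M reads in siDnmt1 1 and 2. The 4 libraries of 4OHT-treated cells held 15.6 M and 15.3 M reads with siCtrl and 14.7 M and 13.7 M reads with siDnmt1. Depth therefore differed little between the groups. A value that was usable in the siCtrl and siDnmt1 libraries was found for 19296 genes, and 10755 of them were tested, those with at least 1 FPKM in at least 2 of the 8 libraries. The 4 groups were fitted together with limma on the scale of log2(FPKM + 0.1), two-sided, with p-values adjusted over all genes tested. Calls need a fold change of 2 or more besides an adjusted p below 0.05. Adding 0.1 FPKM understates the fold change of low genes. An FPKM of exactly 0 can also be a failed estimate, so such genes are described as listed at 0, and their fitted fold changes are not given. With 2 libraries against 2, an exact permutation test of a single value cannot give a p below 1 in 3, so such values are described without a test.

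The replicates lay close together. The median standard deviation of log2 values was 0.0819 in siCtrl and 0.0614 in siDnmt1, and 1.80% and 1.56% of genes lay over 2-fold apart between the libraries of a group. The groups given 4OHT spread further, with medians of 0.224 in 4OHT + siCtrl and 0.130 in 4OHT + siDnmt1. In 4OHT + siCtrl, 10.5% of genes lay over 2-fold apart, and in 4OHT + siDnmt1 4.30%. As all groups share 1 estimate of the spread, a gene that varies in the 4OHT libraries is harder to call between siCtrl and siDnmt1.

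The siRNA target fell in both siDnmt1 libraries. Dnmt1 (chromosome 9, 20711650 to 20764332, mm9) was at 80.5 and 73.4 FPKM in siCtrl 1 and 2, and at 12.2 and 10.6 FPKM in siDnmt1 1 and 2. The groups do not overlap. The log2 fold change came to -2.75 (adjusted p = 0.000156 in limma, standard error 0.11), so the transcript was strongly depleted but still present. The same siRNA gave 12.2 and 11.4 FPKM against 78.7 and 78.3 FPKM in cells given 4OHT. Setdb1 (chromosome 3, 95127447 to 95161124) was at 7.40 and 6.48 FPKM in siCtrl and 6.08 and 5.54 FPKM in siDnmt1. Its groups do not overlap, but the change in log2, -0.25 with a standard error of 0.23 (adjusted p = 0.544), was about as large as its error.

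The list named DNA methylation machinery holds 28 genes, among them Setdb1, Trim28 and other factors of histone methylation. Of these, 24 were tested, 1 was under the filter and 3 lay in loci joined with other genes. None was called higher (0 at an unadjusted p under 0.05) and 2 were called lower (9 at an unadjusted p under 0.05). These 2 are Dnmt1 itself and Tet3, which oxidizes methylated cytosine. Across all genes tested, 2.42% were called higher and 2.78% lower. Tet3 went from 5.79 and 6.67 FPKM to 3.01 and 2.87 FPKM (log2 fold change -1.06, standard error 0.23, adjusted p = 0.0373), and its call was lost when either siCtrl library or either siDnmt1 library was left out. Tet1, a related enzyme, went from 1.62 and 1.10 FPKM to 0.473 and 0.386 FPKM and missed the threshold (adjusted p = 0.0510). Uhrf1, the partner of Dnmt1, was at 81.9 and 81.3 FPKM with siCtrl and 90.3 and 87.9 FPKM with siDnmt1, a rise that did not pass the test (adjusted p = 0.521). The methyltransferases that set new methylation did not pass it either, as Dnmt3a went from 6.25 and 5.37 FPKM to 3.83 and 3.65 FPKM (adjusted p = 0.0698) and Dnmt3b overlapped between the groups. The median log2 fold change of the list was -0.22, against -0.09 over all genes tested, and 4 of the 24 lay above and 17 below without overlap, against 27.1% and 45.3%.

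**Figure D1:**
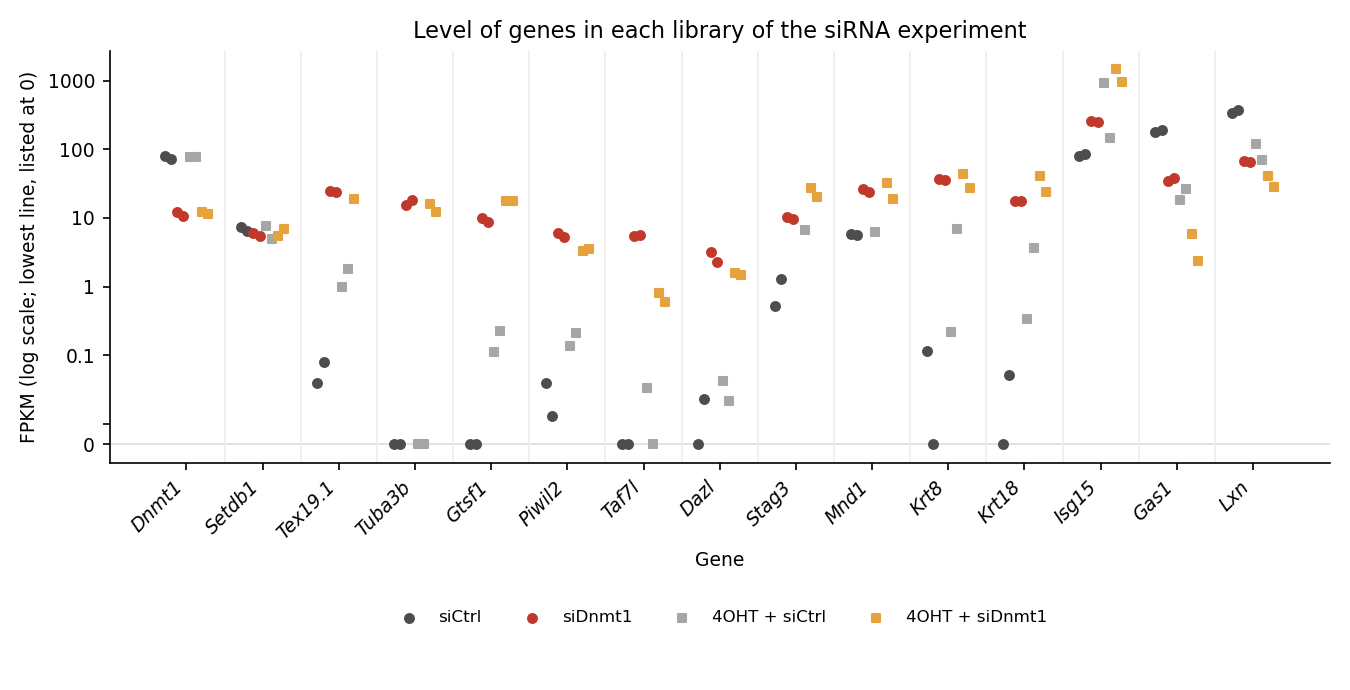
FPKM (log axis, with values listed at 0 on the lowest line) of Dnmt1, Setdb1 and 13 genes named in the text, in each of the 8 libraries of the siRNA experiment, with 1 point for each library. Dnmt1 sits lower in the 4 siDnmt1 libraries, and Tuba3b, Gtsf1, Taf7l, Dazl, Krt8 and Krt18 sit at or near 0 in the siCtrl libraries without 4OHT.

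Across the genome, 559 genes were called, 260 higher and 299 lower in siDnmt1, and 2871 had an unadjusted p under 0.05. The sizes were unequal. The median log2 fold change was 2.38 for the genes called higher and -1.48 for those called lower. Of the genes called higher, 121 had a mean under 0.5 FPKM in siCtrl, 104 had a mean of at least 1 FPKM, and 33 were listed at 0 in both siCtrl libraries. A siCtrl mean of at least 10 FPKM was found for 32 genes called higher and 137 genes called lower. The genes called lower mostly remained present, and 49 had a mean under 0.5 FPKM in siDnmt1. A gene silent in siCtrl passes the filter only if it is high in another group, so genes of that kind could be tested only where they rose. Without regard to the test, siDnmt1 lay above siCtrl with no overlap in 2913 genes (27.1%) and below it in 4867 genes (45.3%). The median shift of all genes was -0.09, and it was 0.00 under median-ratio scaling and -0.02 under quantile normalization.

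The counts rest on all 4 libraries. With the siCtrl and siDnmt1 libraries alone in the fit, 497 genes were called higher (4.62%) and 460 lower (4.28%), and these include all 559 calls. With 1 library left out, the counts called higher fell to 81 without siCtrl 1, 72 without siCtrl 2, 63 without siDnmt1 1 and 64 without siDnmt1 2. The counts called lower fell to 43, 31, 42 and 32 in the same order. The lone library of the group is then assumed to vary like the other groups. Every called gene kept its direction in each of these fits, which calls of 2-fold or more would mostly do anyway. Of 101 called genes examined by name, 38 kept their call in all of these fits. Dnmt1, Meioc, Tex12, Slc25a31, Dcn, Gdf15, Egr3, Zfp37 and Zfp575 are among these 38, and others are marked where they are described. A call below that is not said to be kept was lost without at least 1 of the 4 libraries.

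The same siRNA in the cells given 4OHT provides a comparison whose fold changes share no library with this one. The filter and the estimate of each gene's spread are shared, so calls in both comparisons are not independent. There, 111 of 10689 genes were called higher (1.04%) and 45 lower (0.421%). Of the genes called higher without 4OHT, 255 had a value in that comparison, and 241 of these (94.5%) also rose, against 47.5% of all genes tested. They rose by a median log2 of 1.56, and 84 were called there. Of the genes called lower without 4OHT, 298 had a value, 261 (87.6%) also fell against 52.5% of all genes, the median log2 was -0.58, and 25 were called. The genes that rose thus rose again at more of their size than the genes that fell. The sets differ in the room they had to change, though. Genes already low in 4OHT + siCtrl, as most of those with the lowest fold changes were, could hardly fall again. Genes silent there could only rise, so the shares and sizes of the sets are not directly comparable. A test of the difference between the 2 siRNA effects called 2 genes (0.0187%), Dcn and Mrpl35, with 1102 genes at an unadjusted p under 0.05. For every other gene named here, a call in only 1 of the comparisons does not show that the effects differ.

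**Figure D2:**
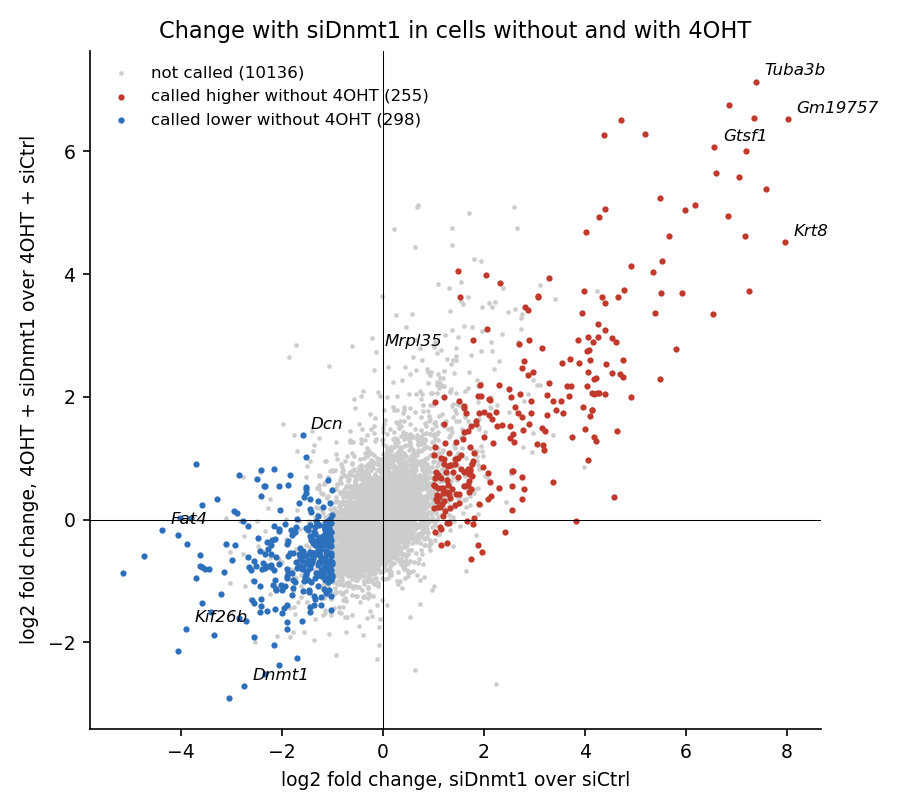
Log2 fold change of siDnmt1 against siCtrl in cells without 4OHT (x axis) and in cells given 4OHT (y axis), with 1 point for each gene: 255 called higher, 298 called lower and 10136 not called without 4OHT. Most genes called higher lie in the upper right and most genes called lower in the lower left, nearer to the x axis.

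Of the 260 genes called higher, 16 belong to the piRNA, meiosis and germ cell lists and 244 do not. Several of the 16 went from near silence to clear expression. Tex19.1 (chromosome 11, 121007457 to 121009627), a gene of germ cells and placenta that restrains retrotransposons, was at 0.0398 and 0.0799 FPKM in siCtrl and 25 and 23.6 FPKM in siDnmt1. This is a log2 fold change of 7.26 with a standard error of 0.33 (adjusted p = 0.000391), and the groups are far apart. Dazl (chromosome 17, 50418718 to 50432945), an RNA-binding protein needed for germ cells to form, was listed at 0 in siCtrl 1, at 0.0226 FPKM in siCtrl 2 and at 3.15 and 2.30 FPKM in siDnmt1. Taf7l (chromosome X, 130994655 to 131011029), a germ cell relative of a general transcription factor, was listed at 0 in both siCtrl libraries and at 5.48 and 5.57 FPKM in siDnmt1. Tuba3b (chromosome 6, 145564483 to 145569997), an alpha tubulin of the testis, was listed at 0 in both siCtrl libraries and at 15.5 and 18.1 FPKM in siDnmt1. Its near copy Tuba3a was at 0.0468 and 0 FPKM in siCtrl and 5.36 and 5.41 FPKM in siDnmt1, and as the aligner kept 1 position for a read with several hits, the split between these copies is uncertain. In all 5 genes, both siDnmt1 libraries are far above both siCtrl libraries, and each call was kept with any 1 of the 4 libraries left out.

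The promoters of 6 such genes, with those of Krt18 and Serpinb1c for contrast, are shown because CpG sites in the promoter are what Dnmt1 keeps methylated. They were chosen after the values were seen. Each runs from 250 bases before to 50 bases after the start of the RefSeq transcript in build GRCm38.p6, 300 bases 5′ to 3′ on the strand of the gene, with CG in capitals. Dazl lies at chr17:50293571-50293870 (minus strand), Tex19.1 at chr11:121145893-121146192 (plus), Taf7l at chrX:134476441-134476740 (minus) and Gtsf1 at chr15:103430378-103430677 (minus). Tuba3b lies at chr6:145615713-145616012 (plus), Stag3 at chr5:138280259-138280558 (plus), Krt18 at chr15:102027966-102028265 (plus) and Serpinb1c at chr13:32940551-32940850 (minus).
Dazl: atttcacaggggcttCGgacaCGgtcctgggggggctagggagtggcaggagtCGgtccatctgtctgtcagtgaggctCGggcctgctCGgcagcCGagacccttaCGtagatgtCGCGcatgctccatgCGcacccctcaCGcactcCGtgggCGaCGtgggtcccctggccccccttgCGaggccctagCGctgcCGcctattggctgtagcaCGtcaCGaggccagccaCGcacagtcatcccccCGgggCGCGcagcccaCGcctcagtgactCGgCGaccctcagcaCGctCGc
Tex19.1: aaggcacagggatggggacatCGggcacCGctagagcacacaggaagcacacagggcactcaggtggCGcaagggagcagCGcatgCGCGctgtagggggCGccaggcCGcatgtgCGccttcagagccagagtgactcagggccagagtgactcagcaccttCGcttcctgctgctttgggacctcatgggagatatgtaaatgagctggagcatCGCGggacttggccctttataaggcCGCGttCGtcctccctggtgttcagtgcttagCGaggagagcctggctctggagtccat
Taf7l: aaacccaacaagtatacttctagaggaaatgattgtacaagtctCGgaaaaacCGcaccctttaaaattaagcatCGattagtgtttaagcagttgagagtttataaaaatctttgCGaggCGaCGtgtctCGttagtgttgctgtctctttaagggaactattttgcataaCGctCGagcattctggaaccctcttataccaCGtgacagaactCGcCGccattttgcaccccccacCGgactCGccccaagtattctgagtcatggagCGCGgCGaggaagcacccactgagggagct
Gtsf1: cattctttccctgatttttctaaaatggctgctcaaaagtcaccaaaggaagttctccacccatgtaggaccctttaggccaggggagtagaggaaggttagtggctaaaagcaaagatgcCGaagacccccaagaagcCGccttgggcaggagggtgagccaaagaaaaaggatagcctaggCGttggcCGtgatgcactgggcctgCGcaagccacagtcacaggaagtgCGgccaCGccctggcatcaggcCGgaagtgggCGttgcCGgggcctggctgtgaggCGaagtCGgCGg
Tuba3b: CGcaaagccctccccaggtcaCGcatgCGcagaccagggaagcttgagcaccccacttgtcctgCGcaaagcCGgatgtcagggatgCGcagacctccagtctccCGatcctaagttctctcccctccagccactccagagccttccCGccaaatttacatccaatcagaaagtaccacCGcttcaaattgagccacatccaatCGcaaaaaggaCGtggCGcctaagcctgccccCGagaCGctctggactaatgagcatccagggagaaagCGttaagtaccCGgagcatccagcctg
Stag3: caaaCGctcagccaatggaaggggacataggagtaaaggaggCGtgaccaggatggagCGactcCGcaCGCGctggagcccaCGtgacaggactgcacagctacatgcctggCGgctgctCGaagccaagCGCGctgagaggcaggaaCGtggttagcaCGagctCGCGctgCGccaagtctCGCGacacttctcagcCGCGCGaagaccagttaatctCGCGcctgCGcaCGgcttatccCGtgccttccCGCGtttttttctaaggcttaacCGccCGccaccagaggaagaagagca
Krt18: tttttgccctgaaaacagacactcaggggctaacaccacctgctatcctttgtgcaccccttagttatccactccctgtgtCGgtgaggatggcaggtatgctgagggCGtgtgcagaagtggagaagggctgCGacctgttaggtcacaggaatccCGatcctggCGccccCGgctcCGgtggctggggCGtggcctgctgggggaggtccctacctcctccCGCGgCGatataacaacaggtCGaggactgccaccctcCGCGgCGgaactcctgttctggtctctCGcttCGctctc
Serpinb1c: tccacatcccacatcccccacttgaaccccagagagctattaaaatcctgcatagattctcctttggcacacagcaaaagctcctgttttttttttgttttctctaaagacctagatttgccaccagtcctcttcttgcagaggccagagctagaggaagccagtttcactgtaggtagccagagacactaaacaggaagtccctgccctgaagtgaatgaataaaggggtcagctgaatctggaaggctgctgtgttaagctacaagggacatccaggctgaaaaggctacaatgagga
The germ line promoters hold between 13 CpG (Gtsf1) and 30 CpG (Stag3), with 28 in Dazl, 16 in Tex19.1, 17 in Taf7l and 16 in Tuba3b. Krt18 holds 17 and Serpinb1c 0. The letters TCCCGC (or GCGGGA, the other strand), a core of sites bound by E2F6, and CACGTG, the same on both strands and bound by Max with its partners, were searched, and these motifs do not overlap each other. TCCCGC occurs 1 time each in Tex19.1, Tuba3b, Stag3 and Krt18, and in 20% of all promoters (6562 of 32851, from 27025 genes). CACGTG occurs 1 time each in Taf7l and Stag3, and in 7.15% of all promoters (2349). A match describes the letters of the window and not a bound site.

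Within the piRNA pathway, which guides the silencing of transposons in germ cells, Piwil2 and Gtsf1 were called higher. They are 2 of the 5 genes of this list that were tested, where 2.42% of all genes tested were called higher. As members silent in siCtrl were tested only if they reached 1 FPKM in other groups, the filter raises this share. Piwil2 (chromosome 14, 70772287 to 70828901), a PIWI protein that binds piRNAs, was at 0.0388 and 0.0130 FPKM in siCtrl and 6.06 and 5.20 FPKM in siDnmt1 (log2 fold change 5.51, standard error 0.28, adjusted p = 0.000306). Gtsf1 (chromosome 15, 103232890 to 103260858), a zinc finger partner of PIWI proteins, was listed at 0 in both siCtrl libraries and at 10.0 and 8.87 FPKM in siDnmt1. Both thus went from near silence to clear expression, and both calls were kept with any 1 library left out. Of the 21 genes of the list, 5 were tested, 12 were under the filter and 4 were set aside for a 0 treated as missing. Among the 17 with usable values, siDnmt1 lay above siCtrl with no overlap in 11 and below it in 1, against 19.3% above and 29.3% below over the 19296 usable genes, and 8 were listed at 0 in both siCtrl libraries. Much of the list remained barely detectable. Mael, a piRNA factor, was listed at 0 in siCtrl and reached 0.398 and 0.495 FPKM, and Ddx4, the germ cell helicase, went from 0.166 and 0.167 FPKM to 0.515 and 0.319 FPKM.

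Of 28 meiosis genes, 9 were tested, 15 were under the filter and 4 were set aside. Called higher were 6 of the 9, where 2.42% of all genes tested were, and none was called lower (0 at an unadjusted p under 0.05). A member silent in siCtrl was tested only if it reached 1 FPKM in other groups. The filter thus favours members that rose, and the share called does not show a rise of the list. Stag3 (chromosome 5, 138721737 to 138753621), the cohesin subunit of meiosis, was at 0.528 and 1.30 FPKM in siCtrl and 10.4 and 9.73 FPKM in siDnmt1 (log2 fold change 3.43, standard error 0.39, adjusted p = 0.00873). Mnd1, which helps strands invade during recombination, was already at 5.93 and 5.70 FPKM in siCtrl and reached 26.8 and 23.8 FPKM (log2 fold change 2.10, standard error 0.26, adjusted p = 0.0110). The calls of Stag3 and Mnd1 were not kept with each library left out. The paper describes an IAPEz copy at the Mnd1 locus whose CG methylation fell with the Dnmt1 siRNA. The part of that copy in the rise of Mnd1 was not tested. Tex12, a part of the synaptonemal complex, was listed at 0 in siCtrl and at 1.74 and 2.36 FPKM in siDnmt1. Meioc, which prolongs the meiotic programme, went from 0.0418 and 0.0839 FPKM to 2.70 and 2.48 FPKM. The X-linked recombination gene Tex11 went from 0 in both libraries to 1.25 and 1.12 FPKM, and Tex15, needed for meiosis and silencing in male germ cells, from 0.0668 and 0.0745 FPKM to 1.10 and 1.08 FPKM. None of the 6 overlaps between the groups. Of the 24 genes with usable values, 11 lay above without overlap and 2 below, against 19.3% and 29.3% of the 19296 usable genes, and 10 were listed at 0 in both siCtrl libraries.

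The list of germ cell regulators and testis-specific paralogs holds 40 genes, of which 12 were tested, 27 were under the filter and 1 was set aside. Called higher were 8, where 2.42% of all genes tested were: Dazl, Tex101, Tex13, Tex19.1, Taf7l, Slc25a31, Tuba3a and Tuba3b. None was called lower (0 at an unadjusted p under 0.05). Here too the filter kept members silent in siCtrl only where another group was high, so these shares favour rises. Of 39 with usable values, 20 lay above without overlap and 5 below, against the same shares, and 22 were listed at 0 in both siCtrl libraries. The summed level of the list was 6.08 and 5.66 FPKM in siCtrl and 70.5 and 70.0 FPKM in siDnmt1, and Tex19.1 and Tuba3b supply most of the sum. In the piRNA list the sum went from 22.9 and 20.9 FPKM to 46.8 and 43.1 FPKM, and in the meiosis list from 91.0 and 86.0 FPKM to 135 and 137 FPKM. Some germ line genes thus rose from silence while many others in the same lists remained at or near 0. In bulk RNA, more cells that express a gene and more RNA in each cell cannot be told apart, nor can fewer cells and less RNA in each cell.

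The X chromosome carries many genes used only in testis. The list of X-linked cancer-testis and reproductive homeobox genes holds 58 members, of which 1 was tested, 40 were under the filter, 2 lay in joined loci and 15 were set aside. The tested member, Mageb16, was listed at 0 in both siCtrl libraries and at 1.52 and 1.94 FPKM in siDnmt1, and was called higher. Of 41 members with usable values, 39 were listed at 0 in both siCtrl libraries, and so could not lie below them. Above siCtrl without overlap lay 18, where 19.3% of all usable genes do, at low levels: over 42 members with values in these libraries, the sum was 0.0888 and 0 FPKM in siCtrl and 7.97 and 7.51 FPKM in siDnmt1. Members of these clusters are near copies of each other, so which copy carries the reads is uncertain. Over the genome, chromosome X held 338 of 10755 genes tested (3.14%), with 14 of the 260 called higher (5.38%) and 11 of the 299 called lower (3.68%). Of these 14, 10 were listed at 0 in both siCtrl libraries, and so were tested only because another group was high. The share called higher is therefore not comparable with the share tested.

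Among the 33 genes called higher that were listed at 0 in both siCtrl libraries, 10 lie on chromosome X, and the 10 with the highest level in siDnmt1 show what they are. Tuba3b leads them. Serpinb1c (chromosome 13, 32973266 to 32990009), a serine protease inhibitor, was at 11.6 and 11.4 FPKM in siDnmt1, and Gtsf1 follows. Next come Gm364 (chromosome X) at 5.65 and 6.39 FPKM, Taf7l, 3830403N18Rik (chromosome X) at 5.47 and 4.48 FPKM, and Cdh19, a cadherin of glia, at 5.31 and 3.86 FPKM. The last are Pet2 at 4.34 and 3.92 FPKM and the testis genes Fmr1nb at 3.29 and 2.58 FPKM and Tex13 at 4.13 and 1.64 FPKM, all of chromosome X. In each, both siDnmt1 libraries were above 1 FPKM. Of these 10 calls, 9 were kept with any 1 library left out, and Tex13 lost its call.

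Genes with very large rises were not all of the germ line. The highest fold change among genes above 0 in all 4 libraries was that of Gm19757 (chromosome 6, 105431260 to 105442662), a predicted gene, which went from 1.00 and 0.714 FPKM to 254 and 238 FPKM (log2 fold change 8.02, standard error 0.19, adjusted p = 2.60e-05). The loci of 4933409K07Rik on chromosome 4 were summed, as was done for every symbol. Its level went from 12.9 and 13.2 FPKM to 1228 and 1316 FPKM (log2 fold change 6.60, standard error 0.24, adjusted p = 9.26e-05). This made it the most abundant of all genes called higher. A430078G23Rik went from 0.861 and 1.15 FPKM to 198 and 224 FPKM, Gm11127 from 2.04 and 2.64 FPKM to 259 and 291 FPKM, and Gm4262 from 0.686 and 0.757 FPKM to 102 and 115 FPKM. Named proteins are found among them too. The cation channel Trpc6 went from 0.343 and 0.264 FPKM to 56.0 and 61.4 FPKM, and the ankyrin repeat protein Asb5 from 0.755 and 1.07 FPKM to 73.8 and 71.8 FPKM. The odorant receptor gene Olfr1055 went from 0.146 and 0.294 FPKM to 46.6 and 56.1 FPKM, and the matrix protein gene Efemp1 from 0.233 and 0.100 FPKM to 28.5 and 20.5 FPKM. With Tex19.1 these are the 10 with the highest fold change, and 9 kept their call with any 1 library left out, Efemp1 being the exception. In cells given 4OHT all 10 rose again, with Efemp1 at 8.88 FPKM in 1 siDnmt1 library and 0.248 FPKM in the other, and not called.

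The genes called higher that were most abundant over the 4 libraries include 4933409K07Rik, Gm11127, Gm19757 and A430078G23Rik, and 6 genes that were well expressed before. Ly6a, a surface protein attached by a lipid anchor, went from 71.7 and 80.6 FPKM to 321 and 327 FPKM (log2 fold change 2.09, adjusted p = 0.00172), and its relative Ly6e from 155 and 168 FPKM to 402 and 403 FPKM. Ankrd1, a nuclear cofactor of stressed muscle, went from 96.8 and 77.3 FPKM to 248 and 221 FPKM. The small heat shock protein Hspb1 went from 64.0 and 69.9 FPKM to 253 and 201 FPKM, and Errfi1, an inhibitor of the EGF receptor, from 62.4 and 59.7 FPKM to 190 and 199 FPKM. H2-K1, a class I histocompatibility gene, went from 75 and 76.6 FPKM to 168 and 161 FPKM. These rises are of about 2 to 4-fold and so smaller than those of silent genes. Of the 10, 6 kept their call with any 1 library left out, and Ly6e, Ankrd1, Hspb1 and H2-K1 lost it.

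CpG sites near the start were counted in the mm9 genome from 250 bases before to 50 bases after the annotated start, in 91.7% of the genes tested, 90.8% of those called higher and 92.0% of those called lower. These starts come from another annotation than the printed promoters, so single counts can differ. The median was 20 CpG over all genes tested, 9 over genes called higher and 15 over genes called lower. At most 5 CpG were found in 9.95% of all genes tested, 33.9% of genes called higher and 18.2% of genes called lower. A gene silent in siCtrl is tested only if libraries of another group reach 1 FPKM, so the sets are not alike in level, and the difference between them was not tested. Among the genes called higher, the median of those in the piRNA, meiosis and germ cell lists was 16.0 (15 of 16 with a window) and 0 had at most 5. The median of the others was 8 (221 genes) and 36.2% had at most 5, and this difference was not tested. For the genes called higher and listed at 0 in both siCtrl libraries, the median was 5.50 (30 of 33), and 50% had at most 5. No methylation was measured in these libraries, and the part of CpG content in the changes was not tested.

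**Figure D3:**
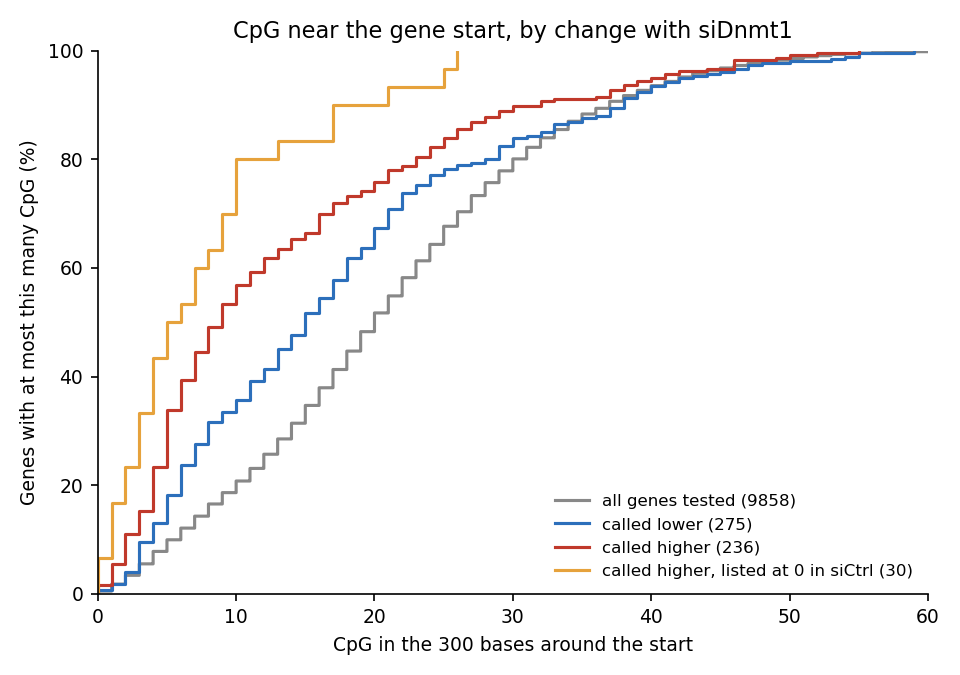
Share of genes (%, y axis) with at most the given number of CpG (x axis) in the 300 bases around the annotated start, for all genes tested, genes called lower, genes called higher, and those of them listed at 0 in both siCtrl libraries. The curve of the genes called higher rises before that of all genes tested, with a median of 9 against 20 for all genes tested.

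Retroviral elements were followed through assembled loci that carry no gene name and lie at least 50% inside an element listed with the study. A locus missing from a library does not show that the element is silent, and as the aligner kept 1 position for a read with several hits, which copies carry reads is uncertain. Of 593 listed IAPEz elements, 0 held a locus in siCtrl 1 and 2 in siCtrl 2, and 581 and 583 held one in siDnmt1 1 and 2. The loci covered 0 and 0.951 kb in siCtrl and 2622 and 2639 kb in siDnmt1, at a mean of 11 and 9.48 FPKM in siDnmt1. The deposited intervals implied 0 and 30.2 reads against 237769 and 234071 reads. FPKM times length, summed over the family, rose by 26877 FPKM kb between the group means. In cells given 4OHT, 1 and 2 IAPEz elements held a locus with control siRNA and 583 and 580 with siDnmt1. IAPEz loci thus appear in all 4 libraries with siDnmt1 and nearly none without it.

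The VL30 elements, grouped by the U3 region of their terminal repeats, rose less completely. Of 71 class I elements, 10 and 10 held a locus in siCtrl and 35 and 38 in siDnmt1, with a mean of 12.4 and 9.02 FPKM against 16.9 and 17.5 FPKM. Class III went from 7 and 4 of 66 elements to 43 and 44, at 4.07 and 2.76 FPKM against 39.1 and 33.7 FPKM. Class IV went from 1 and 3 of 25 elements to 8 and 8, at 3.03 and 2.70 FPKM against 57.5 and 48.4 FPKM, and from 1.25 and 3.09 kb to 13 kb in each siDnmt1 library. Class II, with 186 elements, held no locus in any of the 4 libraries. The covered length of class I was 13.9 and 12.9 kb in siCtrl and 70.5 and 68.8 kb in siDnmt1, and that of class III 4.73 and 2.66 kb against 60.6 and 63.0 kb. The implied reads went from 1036 and 861 to 9924 and 9470 in class I, from 128 and 62.2 to 4326 and 4123 in class III, and from 40.7 and 76.8 to 944 and 895 in class IV. Class I, III and IV thus rose in number, length and reads. Their mean FPKM rose too, and in class III and IV it rose more than the reads did for the length covered. With 4OHT and control siRNA, 51 and 54 of the class I elements held a locus, more than with siDnmt1 alone.

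The remaining families moved little or without 1 direction. MMERVK10C held a locus in 0 and 0 of 167 elements in siCtrl and in 2 and 1 in siDnmt1, whereas 26 and 12 held one with 4OHT and control siRNA. RLTR4 was present from the start, in 43 and 40 of 51 elements with siCtrl and in 35 and 37 with siDnmt1. Its mean level was 5.26 and 6.49 FPKM in siCtrl and 8.76 and 7.83 FPKM in siDnmt1, while its covered length went from 66.4 and 63.5 kb to 50.4 and 54.2 kb, and the summed FPKM kb differed by 52.3. Its implied reads went from 3447 and 3246 to 2611 and 2449. The direction of RLTR4 therefore depends on the measure: elements, length and reads fell while FPKM rose.

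**Figure D4:**
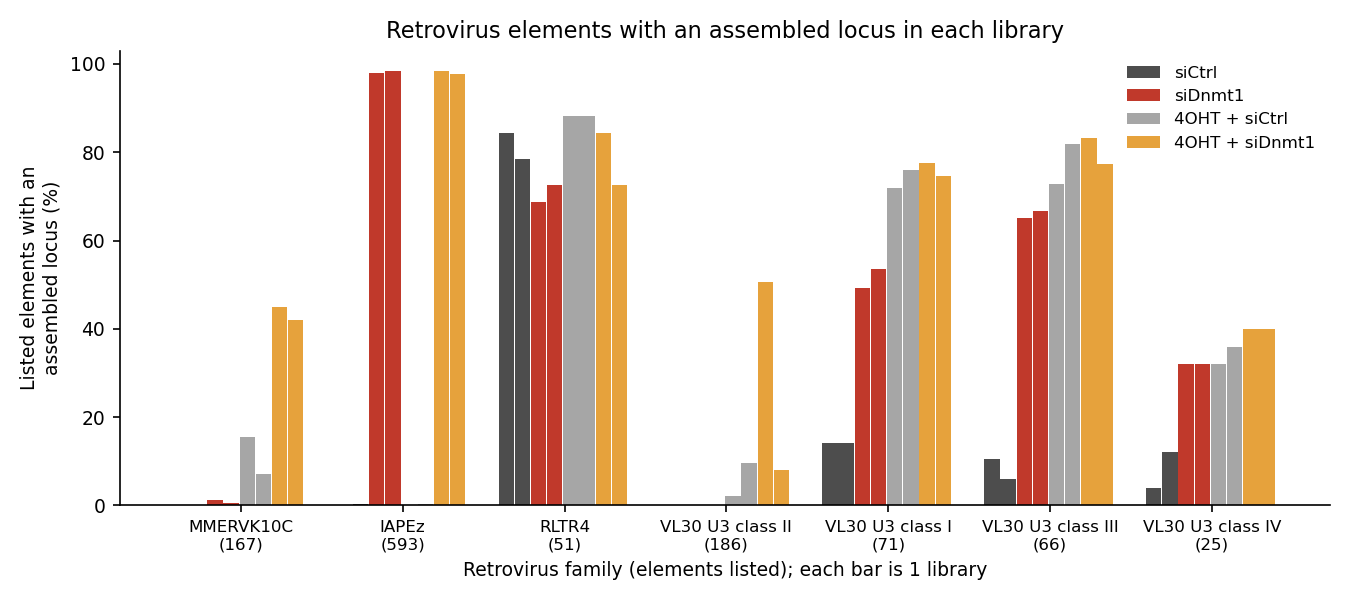
Share (%, y axis) of the listed elements of each family (x axis) that hold an assembled locus, with 1 bar for each of the 8 libraries of the siRNA experiment. The IAPEz share is near 0 in the 4 libraries without siDnmt1 and near its maximum in the 4 libraries with it (581 and 583 of 593 without 4OHT).

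Few called genes overlap a listed element. An overlap was found for 82 of 10755 genes tested (0.762%), among them 3 of the 260 called higher (1.15%) and 4 of the 299 called lower (1.34%). The 3 are Cd209c, Itgbl1 and Slc4a4, named after their values were seen. The lectin gene Cd209c went from 0.999 and 0.547 FPKM to 3.17 and 3.90 FPKM, Itgbl1 from 0.283 and 0.199 FPKM to 4.48 and 3.27 FPKM, and the bicarbonate transporter gene Slc4a4 from 0.193 and 0.160 FPKM to 1.54 and 1.53 FPKM. The 4 called lower are Fbxl17, Pag1, Serinc5 and Sesn1. Within 50 kb of an IAPEz element lay 15 of the genes called higher (5.77%), 11 of those called lower (3.68%) and 286 of those tested (2.66%). Most called genes are thus not next to a listed element, and unlisted elements were not examined.

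Among genes induced by interferon, siDnmt1 lay above siCtrl in nearly every gene tested, though few passed the test. Of 77 on the list, 63 were tested and 14 lay in joined loci. In 62 of the 63, siDnmt1 lay above siCtrl without overlap and in none below, against 27.1% above and 45.3% below over all genes tested, and the exception, Slfn2, was listed at 0 in 3 of the 4 libraries. The median log2 fold change was 1.12, against -0.09 over all genes tested. Only 3 were called higher, where 2.42% of all genes tested were, with 9 at an unadjusted p under 0.05: Ifi204, Igtp and H2-K1, and none lower (0 at an unadjusted p under 0.05), whereas 40 were called higher with the siCtrl and siDnmt1 libraries alone in the fit. The 4OHT + siCtrl libraries differ widely in this list, with medians of 3.38 and -0.07 against the siCtrl mean. The siDnmt1 libraries do not, at 1.16 and 1.14. The ubiquitin-like Isg15 shows it, with 80.9 and 85.6 FPKM in siCtrl, 264 and 251 FPKM in siDnmt1, and 937 and 147 FPKM in 4OHT + siCtrl. With a log2 fold change of 1.63 and a standard error of 0.76, it was not called (adjusted p = 0.229).

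The called members of the list vary less in the libraries used. Ifi204, a DNA sensor of the HIN-200 family, went from 7.03 and 7.21 FPKM to 28.1 and 27.3 FPKM (log2 fold change 1.95, adjusted p = 0.00330), and the GTPase Igtp from 14.7 and 15.2 FPKM to 43.5 and 41.1 FPKM (log2 fold change 1.49, adjusted p = 0.00456). For Ifi204 and H2-K1, 3 of the 4 libraries given 4OHT have no value, as the genes were joined with others there, and for Igtp 2 have none. Ifit1, which binds foreign RNA, went from 28.7 and 28.7 FPKM to 75.8 and 72.3 FPKM, and the sensor Oas2 from 0.749 and 0.890 FPKM to 5.59 and 4.41 FPKM, neither called. The transcription factor Irf7 went from 21.2 and 21.5 FPKM to 41.9 and 39.4 FPKM. The interferon gene Ifnb1 was listed at 0 in both siCtrl libraries and at 0.738 and 0.214 FPKM in siDnmt1, which rests on about 7 and 1.99 reads. In cells given 4OHT, the median of the list for siDnmt1 against siCtrl was 2.16. Against the mean of the siCtrl libraries without 4OHT, the list's median was 4.14 and 3.46 in 4OHT + siDnmt1 and 3.38 and -0.07 in 4OHT + siCtrl, so the size of that rise depends on which 4OHT + siCtrl library is taken.

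Imprinted genes showed no general rise. Of 53, 26 were tested, 15 were under the filter, 7 lay in joined loci, H19 and Meg3 among them, and 5 were set aside. None was called higher (2 at an unadjusted p under 0.05). Called lower were 3 (9 at an unadjusted p under 0.05), where 2.78% of all genes tested were, and the median log2 fold change was -0.26. Mest (chromosome 6, 30683506 to 30698466), expressed from the paternal copy, went from 55.6 and 55.2 FPKM to 9.55 and 11 FPKM (log2 fold change -2.42, standard error 0.14, adjusted p = 0.00295). The receptor Igf2r, expressed from the maternal copy, went from 72.8 and 65.7 FPKM to 34.5 and 32.7 FPKM, and the matrix proteoglycan gene Dcn from 49.4 and 49.2 FPKM to 16.3 and 16.3 FPKM. The growth factor Igf2 went from 26.1 and 25.3 FPKM to 17.3 and 16.2 FPKM and was not called (adjusted p = 0.487). In 7 of the 26, siDnmt1 lay above without overlap and in 17 below, against 27.1% and 45.3% of all genes tested. The reads were not split by parental copy, so these levels do not show which copy is expressed. The calls of Mest and Igf2r were not kept with each library left out.

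The genes with the lowest fold changes encode proteins of several kinds. Osr2 (chromosome 15, 35225867 to 35233060), a transcription factor of palate and limb, went from 29.6 and 32.5 FPKM to 1.58 and 2.04 FPKM (log2 fold change -4.03, standard error 0.31, adjusted p = 0.00147). The steroid reductase gene Srd5a2 had the lowest fold change, from 24.9 and 19.6 FPKM to 0.733 and 0.373 FPKM (log2 fold change -5.15, standard error 0.65, adjusted p = 0.00784). Signalling genes are among them, the Wnt enhancer Rspo2 from 15.5 and 14.8 FPKM to 0.755 and 0.883 FPKM and Bmp3 from 11 and 10.6 FPKM to 0.687 and 0.586 FPKM. The kinesin Kif26b went from 6.43 and 6.15 FPKM to 0.320 and 0.334 FPKM, the large cadherin Fat4 from 2.76 and 2.52 FPKM to 0.0297 and 0.0340 FPKM, and the sorting receptor Sorcs1 from 4.45 and 1.85 FPKM to 0.00840 and 0.0144 FPKM. The nuclear factor Tox went from 2.17 and 1.78 FPKM to 0.0224 and 0.0227 FPKM, and the matrix genes Aspn and Abi3bp from 3.58 and 3.72 FPKM to 0.195 and 0.141 FPKM and from 4.53 and 3.33 FPKM to 0.169 and 0.245 FPKM. These 10 genes fell to a small part of their level. Rspo2, Osr2 and Kif26b kept the call with any 1 library left out, and the other 7 did not.

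Most of these genes were already low in the cells given 4OHT with control siRNA. Osr2 was at 1.10 and 0.543 FPKM there and at 0.759 and 0.820 FPKM with siDnmt1 added, and Srd5a2 at 0.177 and 0.361 FPKM, against 0.279 and 0 FPKM. Kif26b was at 0.540 and 0.405 FPKM and fell to 0.0583 and 0.0720 FPKM, and was called lower there too. The difference between the siRNA effects was not called for any of the 10, with an adjusted p of 0.0720 for Osr2 and 0.227 for Srd5a2.

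The most abundant genes called lower fell by less. Collagen VI chains lead, Col6a1 from 556 and 569 FPKM to 260 and 256 FPKM (log2 fold change -1.12, adjusted p = 0.00374) and Col6a2 from 447 and 416 FPKM to 197 and 195 FPKM. The hedgehog co-receptor Gas1 went from 178 and 189 FPKM to 34.5 and 38.4 FPKM, and Lxn, an inhibitor of carboxypeptidases, from 342 and 374 FPKM to 68.5 and 66.0 FPKM. The largest falls of the 10 are those of Gas1 and Lxn. The protease inhibitor Cst3 went from 334 and 390 FPKM to 171 and 177 FPKM, the fatty acid carrier Fabp5 from 328 and 346 FPKM to 135 and 147 FPKM, and the actin bundler Fscn1 from 197 and 249 FPKM to 99.8 and 105 FPKM. Id3, which blocks helix-loop-helix factors, went from 219 and 196 FPKM to 86.9 and 77.1 FPKM, Rcn3, a calcium-binding protein of the endoplasmic reticulum, from 207 and 196 FPKM to 83.8 and 86.1 FPKM, and Basp1 from 190 and 186 FPKM to 86.6 and 90 FPKM. Groups did not overlap in any of them. Basp1 alone kept its call with each library left out.

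Matrix and contractile genes had a median under that of all genes. Of 39, 35 were tested, 3 were under the filter and 1 lay in a joined locus, and the median log2 fold change was -0.37. Called lower were Col6a1, Col6a2 and Dcn, where 2.78% of all genes tested were. Called higher were 2, where 2.42% of all genes tested were. The matrix protease Mmp2 is among them, from 2.56 and 2.42 FPKM to 10.6 and 9.87 FPKM. Of the 35, 10 lay above without overlap and 24 below, where 27.1% and 45.3% of all genes tested do. Clustered protocadherins are adhesion molecules that neurons use as labels, and those with values of their own here belong to the beta cluster. Of 22, 5 were tested, 11 were under the filter and 6 were set aside, and Pcdhb16, Pcdhb17, Pcdhb18 and Pcdhb22 were called lower, where 2.78% of all genes tested were. All 16 of the beta cluster with usable values lay below siCtrl without overlap, as did 29.3% of the 19296 usable genes, at low levels such as 4.20 and 3.59 FPKM against 1.51 and 1.43 FPKM in Pcdhb22. None of the 4 protocadherin calls was kept with each library left out.

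Targets of p53 did not rise as a list. All 26 were tested, the median log2 fold change was -0.51, and 4 lay above and 18 below without overlap, against 27.1% and 45.3% of all genes tested. The calls, 1 higher and 4 lower of 26, stand against 2.42% and 2.78% of all genes. Gdf15 (chromosome 8, 73153293 to 73155534), a stress cytokine, was called higher, from 0.0696 and 0.140 FPKM to 5.81 and 5.08 FPKM (log2 fold change 4.78, standard error 0.33, adjusted p = 0.000845). Called lower were the cyclin-dependent kinase inhibitor Cdkn1a, from 47.7 and 47.5 FPKM to 20 and 20.7 FPKM, Trp53inp1 from 6.27 and 5.14 FPKM to 1.16 and 0.898 FPKM, the death receptor Fas from 9.44 and 8.90 FPKM to 3.24 and 4.28 FPKM, and Sesn1 from 19.5 and 19.9 FPKM to 6.89 and 6.27 FPKM. Gdf15 thus moved against most of its list. Among 36 genes of the cell cycle and DNA replication, 35 were tested and 1 lay in a joined locus. None was called by limma in either direction, also with the siCtrl and siDnmt1 libraries alone in the fit. At an unadjusted p under 0.05 there were 0 higher and 5 lower. Without overlap, 6 lay above and 22 below, against 27.1% and 45.3% of all genes tested, and the median log2 fold change of -0.11 was near that of all genes. Most of these genes thus lay lower in siDnmt1, by amounts that did not pass the test.

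All 23 of the MAPK feedback and immediate early genes were tested. Only Egr3 was called, as lower, where 2.78% of all genes tested were. With the siCtrl and siDnmt1 libraries alone in the fit, 1 was called higher and 5 lower, against 4.62% and 4.28% of all genes. Egr3, a transcription factor induced by growth signals, went from 29.6 and 26.8 FPKM to 7.16 and 7.34 FPKM (log2 fold change -1.94, adjusted p = 0.00295). Fos went from 256 and 256 FPKM to 39.9 and 36.3 FPKM but missed the threshold (standard error 0.93, adjusted p = 0.120). Its values in the 4OHT libraries ranged from 5.43 to 46.3 FPKM. The median of the list was 0.07, with 11 of 23 above and 10 below without overlap, against 27.1% and 45.3% of all genes tested. Of 42 clustered homeobox genes, 13 were tested, 15 were under the filter, 7 lay in joined loci and 7 were set aside. Hoxb8 was called higher, from 1.02 and 1.03 FPKM to 2.28 and 2.05 FPKM, and Hoxa11 and Hoxa13 lower, the last from 4.09 and 4.46 FPKM to 0.538 and 0.924 FPKM, where 2.42% of all genes tested were called higher and 2.78% lower. Of the 13, 6 lay above and 6 below without overlap, and the homeobox median was 0.08. Of the 28 with usable values, 13 lay above and 6 below, against 19.3% and 29.3% of the 19296 usable genes.

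Replication-dependent histone genes and zinc finger genes had medians under that of all genes. Of 61 histone genes, 41 were tested, 13 were under the filter and 7 were set aside, and the median log2 fold change was -0.45. Called lower were 5 (10 at an unadjusted p under 0.05), where 2.78% of all genes tested were. None was called higher (2 at an unadjusted p under 0.05), where 2.42% of all genes tested were. In 3 of the 41 siDnmt1 lay above without overlap and in 17 below, against 27.1% and 45.3% of all genes tested. The median against the siCtrl mean was -0.60 in siDnmt1 1 and -0.23 in siDnmt1 2, over the members with usable values. Some calls rest on few reads: Hist1h2bn was called lower on about 8 and 9.59 reads in siCtrl and 1 and 3 in siDnmt1. Their mRNAs mostly end without a polyA tail. Of 366 genes named Zfp, 281 were tested, 62 were under the filter, 15 lay in joined loci and 8 were set aside. The median was -0.21, and 38 of the 281 lay above and 150 below without overlap, against 27.1% and 45.3% of all genes tested. Zfp354c, Zfp383, Zfp408 and Zfp521 were called lower, 4 of 281 where 2.78% of all genes tested were. Zfp37 and Zfp575 were called higher, where 2.42% of all genes tested were. Zfp575 stands apart, from 1.38 and 2.15 FPKM to 107 and 126 FPKM (log2 fold change 5.99, standard error 0.36, adjusted p = 0.00131), and Zfp37 went from 6.35 and 5.48 FPKM to 17.0 and 14.9 FPKM.

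**Figure D5:**
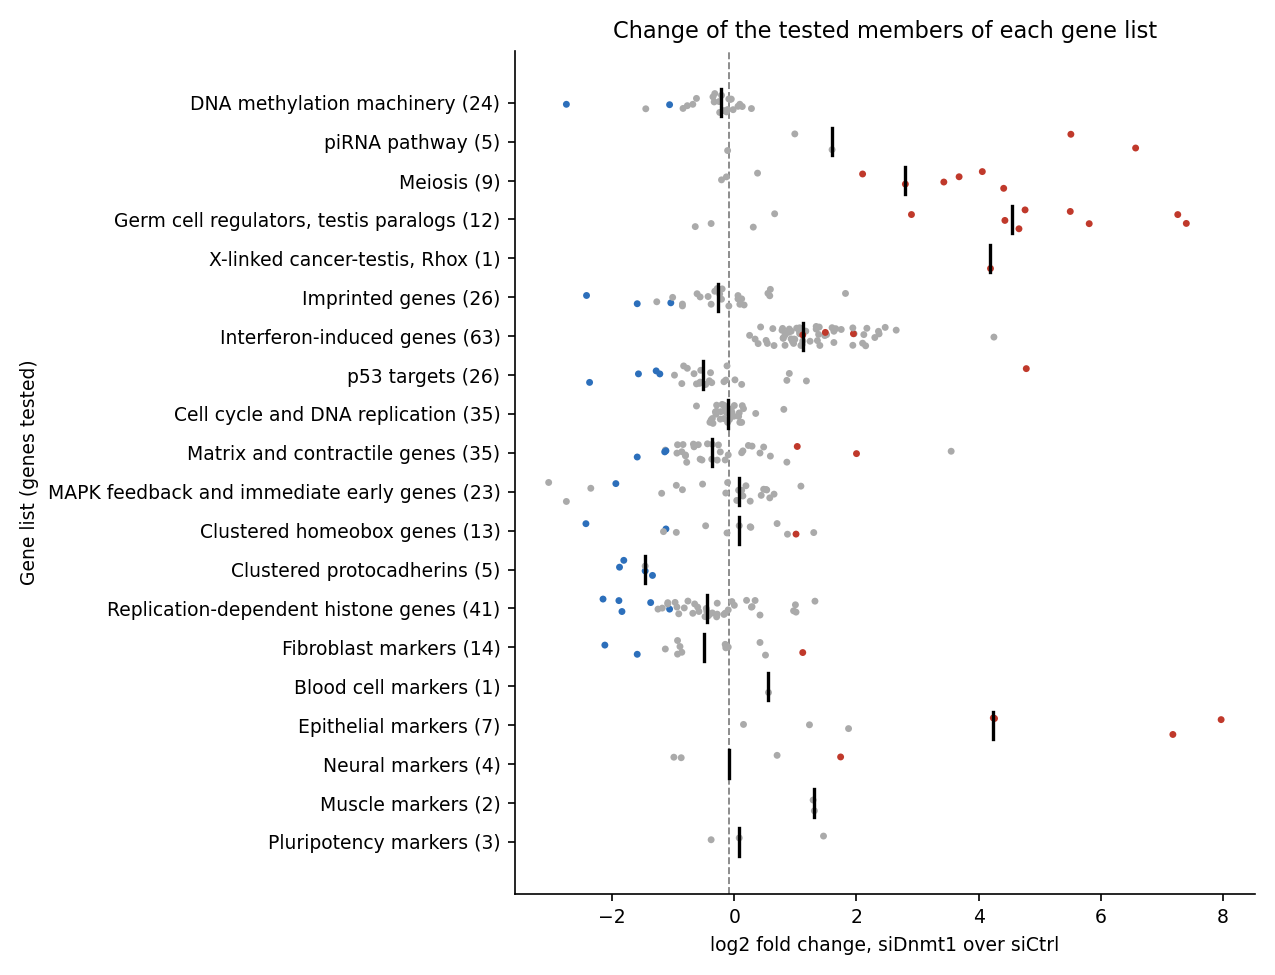
Log2 fold change of siDnmt1 against siCtrl for the tested members of each gene list but the zinc finger genes, with 1 point for each gene, a bar at the list's median and a dashed line at the median of all genes tested. The interferon list sits above 0 with a median of 1.12, and the list of p53 targets has a median of -0.51. Members that were silent in siCtrl and rose little were not tested and are not drawn.

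The fibroblast label was checked against markers. Of 15 fibroblast markers, 14 were tested and 1, Pdgfra, lay in a joined locus, and all 14 were above 0 FPKM in each of the 4 libraries. Col1a1 was at 1106 and 1148 FPKM in siCtrl and 598 and 643 FPKM in siDnmt1, and Vim at 925 and 965 FPKM and 1317 and 1372 FPKM. The summed level was 5170 and 5276 FPKM in siCtrl and 4160 and 4339 FPKM in siDnmt1, with Col1a1 the most abundant in siCtrl and Vim in siDnmt1. Pdgfrb and Dcn were called lower and Thy1 higher, where 2.78% and 2.42% of all genes tested were. The median log2 fold change was -0.50, against -0.09 over all genes, and 3 of the 14 lay above and 10 below without overlap, against 27.1% and 45.3%. Col1a1 and Col1a2 fell by less than the fold limit (adjusted p = 0.0216 and 0.0181), and Col3a1 did not pass (adjusted p = 0.286). The label holds for both groups. Markers of other tissues were looked at in the same way. Of 14 blood markers, 1 was tested, 10 were under the filter, 2 lay in joined loci and 1 was not in the files, and none was called (0 at an unadjusted p under 0.05). Their sum was 161 and 164 FPKM in siCtrl and 236 and 239 FPKM in siDnmt1, of which Cd34, also found on fibroblasts, was the most abundant.

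Some epithelial markers rose with the knockdown. All 12 have values in the libraries. Of these, 7 were tested and 5 were under the filter, with Krt8, Krt18, Cldn3 and Cldn4 called higher, where 2.42% of all genes tested were. Markers near 0 in siCtrl were tested only where another group was high, so the filter raises this share. Of the 7, 6 lay above without overlap and none below, against 27.1% and 45.3% of all genes. Of all 12, 7 lay above and 2 below, against 19.3% and 29.3% of the 19296 usable genes. Krt8 (chromosome 15, 101827142 to 101834773), a keratin of simple epithelia, was at 0.114 and 0 FPKM in siCtrl and 36.7 and 36.4 FPKM in siDnmt1. Its partner Krt18 was at 0 and 0.0513 FPKM and at 17.6 and 17.8 FPKM. The tight junction gene Cldn3 went from 0.173 and 0.290 FPKM to 6.22 and 5.88 FPKM, and Cldn4 from 0.0380 and 0 FPKM to 2.25 and 2.06 FPKM. The sum of the list was 12.1 and 14.0 FPKM in siCtrl and 97.6 and 99.8 FPKM in siDnmt1, with Krt19 the most abundant in siCtrl and Krt8 in siDnmt1. The other members did not move as 1. Krt19 went from 7.54 and 9.03 FPKM to 30.2 and 30.8 FPKM and Epcam, an adhesion protein of epithelium, from 0.526 and 0.264 FPKM to 1.18 and 0.876 FPKM, both without overlap and not called. Krt14 was listed at 0 in siCtrl and reached 0.140 and 0.290 FPKM, and Cldn7 overlapped between the groups. Some defining markers of epithelium remained at or near 0 in siDnmt1. Cdh1 was at 0.322 and 0.342 FPKM, against 0.346 and 0.362 FPKM in siCtrl, Esrp1 and Krt5 were listed at 0 in both siDnmt1 libraries, and Ocln was at 0.0198 and 0 FPKM. The part of these markers in the other results was not tested. The calls of Krt8, Krt18, Cldn3 and Cldn4 were not kept with each library left out.

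Endothelial markers were nearly absent. None of 8 endothelial markers was tested, with 6 under the filter and 2 set aside, and the sum of the 6 with usable values was 0.294 and 0.383 FPKM in siCtrl and 0.327 and 0.215 FPKM in siDnmt1. Of 10 neural markers, 4 were tested, 4 were under the filter and 2 were set aside. Their sum went from 60.5 and 58.4 FPKM to 114 and 120 FPKM, with Nes the most abundant in siCtrl and Tubb3 in siDnmt1. The tubulin gene Tubb3 was called higher, from 16.2 and 17.8 FPKM to 54.5 and 59.6 FPKM, where 2.42% of all genes tested were. Of the 4, 2 lay above and 2 below without overlap, against 27.1% and 45.3% of all genes tested. Map2 fell from 5.13 and 4.26 FPKM to 2.50 and 2.52 FPKM and Mbp from 3.85 and 3.64 FPKM to 1.99 and 1.69 FPKM, neither called. The median of -0.09 became 0.00 under median-ratio scaling. Of 8 muscle markers, 2 were tested, 5 were under the filter and 1 was set aside, none was called (1 at an unadjusted p under 0.05), and the sum went from 1.15 and 1.47 FPKM to 2.85 and 2.54 FPKM. Of 10 pluripotency markers, 3 were tested and 7 were under the filter, and none was called (1 at an unadjusted p under 0.05). Their sum went from 11.8 and 10.2 FPKM to 25.8 and 25.7 FPKM, most of it Klf4, and their median of 0.08 changed sign under quantile normalization (-0.12). Tubb3 and Klf4 are also expressed by fibroblasts.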

How the data were processed

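RNA-seq was measured in 8 libraries of the siRNA experiment. The authors used TopHat2 2.0.12 to align to mm9, with 1 position kept where a read had several, and Cufflinks with RefSeq genes to compute FPKM. The loci of the deposited files differ between libraries. The deposited values are FPKM of assembled loci with their confidence intervals, computed by the authors. Loci of 1 symbol were summed, and loci joining several genes were left out. An exact 0 was set aside as missing where a locus of another gene overlapped it or lay within 1 kb. So was an exact 0 of a locus with an identifier given by the Cufflinks assembly. Of 22247 symbols, 21841 had a locus of their own in the siCtrl and siDnmt1 libraries, 19296 had usable values there, 8541 of these missed the filter of 1 FPKM in 2 of 8 libraries, and 10755 were tested. A further 208 genes that reached 1 FPKM were set aside for such a 0. In the 4OHT libraries, 485 tested genes lack a value.

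The fit (limma 3.58.1, R 4.3.3) took log2(FPKM + 0.1) of 4 groups of 2 libraries with trended variances and 3 contrasts, and was tested on simulated data with 200 changed genes. Tables and figures were made in Python 3.11.15 (numpy 2.4.6, pandas 2.3.3, matplotlib 3.10.9). Depth was computed from deposited intervals of genes with 1 exon and at least 20 reads. It was 13.7 to 15.6 M reads, which limits the precision of low genes. Read numbers of loci follow from FPKM, interval and length.

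The members and lists were chosen with earlier results of these data known. The genes named are Dnmt1 and Setdb1, members of 22 lists, the 10 highest and 10 lowest called fold changes among genes above 0 in the 4 libraries without overlap, the 10 highest in siDnmt1 among genes called higher and listed at 0 in siCtrl, and the 10 most abundant called in each direction. Other genes are marked as named after their values were seen. Lists are described by counts and medians, with no test of the list. Alternatives covered pseudocounts, filters, scaling, groups in the fit, a replicate block, libraries left out, call rules, locus handling and element overlap. Those for zeros kept as values, for genes with values in all 8 libraries, and for the interaction were chosen after seeing the data. No group holds 4 libraries, so no test for outlying samples was made. The total RNA and inhibitor experiments, the authors' comparison tables, and other assays were not used. For 1 list member, the value is not reported here.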

Additional observations from a re-analysis of the deposited data

Results flagged for a closer look

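The effect of siDnmt1 differed between cells without and with 4OHT in 2 genes by the interaction test. Dcn was at 49.4 and 49.2 FPKM in siCtrl and 16.3 and 16.3 FPKM in siDnmt1, and with 4OHT at 1.40 and 1.39 FPKM in siCtrl and 3.92 and 3.63 FPKM in siDnmt1. Its log2 fold change was -1.59 without 4OHT and 1.38 with it, a difference of 2.96 (adjusted p = 0.00374, limma). Mrpl35, named after its values were seen, was at 8.77 and 9.22 FPKM in siCtrl and 7.73 and 8.69 FPKM in siDnmt1, and with 4OHT at 9.77 and 9.52 FPKM in siCtrl and 66.6 and 62.8 FPKM in siDnmt1. Its difference was 2.86 (adjusted p = 0.00374). The deposited intervals implied 581 and 451 reads of Mrpl35 in 4OHT + siCtrl and 366 and 207 reads in 4OHT + siDnmt1, so reads and FPKM moved in opposite directions, and in 4OHT + siDnmt1 1 the locus begins 2483 bases earlier. With a pseudocount of 1 FPKM, the interaction test called 17 genes with a more positive effect under 4OHT and 3 with a more negative one.

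Assembled loci without a gene name and outside the listed elements, which no comparison of genes used, were more numerous with siDnmt1. Their number was 2588 and 2384 in siCtrl and 6748 and 6683 in siDnmt1 1 and 2. The implied reads in them were 408459 and 483938 in siCtrl and 1005531 and 1033201 in siDnmt1. This was noted as a signal above the control libraries in data outside the main measurement.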

How the results depend on the processing

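The 260 genes called higher and 299 called lower kept their direction in every alternative in which they had a value. Calls of 2-fold or more would mostly do so anyway. The counts called higher and lower were 195 and 236 with a pseudocount of 1 FPKM, 270 and 282 with 0.01 FPKM, 286 and 227 with median-ratio scaling and 230 and 234 with quantile normalization. With the replicate number as a replicate block they were 222 and 229. Deviations of same-numbered libraries correlated between -0.0891 and 0.059 across 10270 genes, so the numbers do not pair the libraries. The counts moved by over 1.5 times in these cases. With at least 5 FPKM, where fewer genes were tested, 130 were called higher and 185 lower. With no filter, 232 were called higher and 189 lower, and only 144 and 148 of the reported calls were kept. Of the epithelial markers, 1 was then called higher against 4. With 4 libraries in the fit, 497 and 460 were called, with no fold limit 598 were called lower, and at an adjusted p under 0.01, 119 and 98. Leaving out 1 library gave 63 to 81 higher and 31 to 43 lower, where fewer libraries remain.

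In cells given 4OHT, the replicate block called 29 lower against 45. With a pseudocount of 1 FPKM, an alternative chosen after seeing the data, the interaction test called 17 genes with a more positive effect under 4OHT and 3 with a more negative one, against 2 and 0. The cause was not tested.

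Of 101 called genes examined by name, 88 kept the call with a pseudocount of 1, 94 with 0.01, 93 with median-ratio scaling, 87 with quantile normalization, 91 with the replicate block and 71 with no filter. Between 41 and 47 kept it with 1 library left out.

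The summed FPKM kb of IAPEz rose by 24589 with loci at least 90% inside an element, against 26877, and that of RLTR4 by 85.9 against 52.3. With any overlap, VL30 class II differed by 385 against 0. These follow from which loci are counted. A depth of about 15 M reads leaves genes under 0.1 FPKM with a few reads.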

Other observations

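Some genes outside the lists and rules were chosen after their values were seen. Ndufa8, a subunit of mitochondrial complex I (chromosome 2, 35891854 to 35904812), was at 107 and 116 FPKM in siCtrl and 40.7 and 46.2 FPKM in siDnmt1, and with 4OHT at 111 and 110 FPKM in siCtrl and 38.8 and 45 FPKM in siDnmt1. Its log2 fold change was -1.36 without 4OHT and -1.40 with it, a difference of -0.04 (adjusted p = 0.951, limma), so its fall was of like size in both kinds of cell. This is not particular to Ndufa8: of the 25 genes called lower in both comparisons, Dnmt1, Vash2, Id3, Chrdl1, Col6a1 and Gng2 also differ little, by log2 values of 0.03, 0.01, 0.04, -0.05, -0.06 and 0.06.

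Xist, the RNA that coats the silent X chromosome, was at 0.00506 and 0.00507 FPKM in siCtrl and 1.27 and 1.28 FPKM in siDnmt1 (log2 fold change 3.71, adjusted p = 0.00624). Its implied reads were 0.411 in each siCtrl library and 322 and 318 in siDnmt1. Ipw, a noncoding RNA of the imprinted Snrpn region, was listed at 0 in both siCtrl libraries and at 2.59 and 2.2 FPKM in siDnmt1, on about 22.8 and 19.8 reads.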
